A study of Drosophila melanogaster with 3 samples.

Results

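The genes described here encode insulator proteins and chromatin proteins linked to the DNA replication-related element factor (DREF). They are Chro, pzg, Dref, BEAF-32, CTCF, su(Hw), Cp190, mod(mdg4), Ibf1 and Ibf2, 10 of the 13945 protein-coding genes annotated on 6 chromosome arms. The genes were chosen from measured values: Chro holds the fifth strongest peak of the Pdp1 ChIP-seq data (sequencing of the DNA that an antibody pulls down with a protein), and DREF-type sequences occur at promoter summits of the same data. These values are therefore descriptions, and no test was run on them. Each gene was read over its body plus 2000 bp upstream in Release 6 (dm6) coordinates with Ensembl gene models.

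Insulator proteins bind DNA at domain borders and near promoters, where they can block contact between enhancers and promoters and shape chromosome domains. DREF binds the palindrome TATCGATA, the DNA replication-related element (DRE), in promoters of growth and housekeeping genes. BEAF-32 recognises clusters of CGATA, so its sites overlap those of DREF, and Chro and pzg are partner proteins found with them at polytene interbands. Pdp1 is a basic leucine zipper activator of the PAR family, known for roles in the circadian loop and in muscle, and PAR factors bind TTACGTAA and TTATGTAA.

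The 3 samples were biological replicates of 1 group, so there was no comparison between conditions. They were whole Drosophila melanogaster embryos of mixed sex, 0 to 24 h old, from the line Pdp1-MiMIC-GFP, in which an eGFP exon placed in an intron makes the endogenous gene encode a Pdp1-eGFP fusion. An antibody against GFP precipitated chromatin sonicated to 200 to 800 bp. Peaks of embryos without the tag, or of mock precipitations, were not analysed here. A signal over whole embryos cannot tell many cells with weak binding from a few with strong binding.

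The deposited lists were 30000 relaxed peaks for each replicate, 27719 relaxed peaks called on the pooled replicates, and 4622 thresholded peaks, all of which were pooled peaks and had signals from 102 upward. The pooled relaxed list was deposited as peaks and background, so a summit found only there may be background. The signal is the authors' peak-caller value. It is not scaled between lists, whose medians were 21.3, 15.1 and 15.2 in replicates 1, 2 and 3, so each value is given with its rank in its own list (1 is the strongest). A summit, the deposited point of greatest enrichment in a peak, was called a promoter summit where it lay within 500 bp of an annotated transcription start site (TSS) of the gene. A replicate supported a summit when it had one within 100 bp among its own top 4622 peaks. Read numbers were not analysed, so depth is unknown.

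Of the 10 genes, 6 had a thresholded promoter summit: Chro, pzg, Dref, BEAF-32, CTCF and Cp190. The same was true of 20.7% of all protein-coding genes. Counting the gene body and 2000 bp upstream added mod(mdg4), giving 7 of 10, beside 29.8% of all genes. In the pooled relaxed list all 10 genes had a promoter summit, beside 51.1% of all genes. In the replicates' own top peaks the count was 5 in replicate 1, 7 in replicate 2 and 6 in replicate 3, a mean of 6 ± 1 (SD, n = 3). The shares of all genes there were 21.4%, 18.3% and 20.1%. Chro, pzg, Dref, BEAF-32 and Cp190 were in every replicate's set, whereas CTCF and su(Hw) were added by replicate 2 alone and mod(mdg4) by replicate 3 alone. A thresholded promoter summit with support in all 3 replicates was present at those 5 of the 10 genes and at 12.2% of all genes.

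Sequences at 5 summits are shown: those of Chro, Dref and CTCF because they hold the matches to ATCGAT or CGATA, and the strongest ones of Cp190 and mod(mdg4) as examples of high signal. They are from the dm6 plus strand, 5' to 3', with capitals marking every match to ATCGAT or CGATA on either strand. Those of Cp190 and mod(mdg4) hold no match and have no capitals.
Chro, 3L:22878883-22878912: attgcctgtCGATAgctttaaactaactgc
Dref, 2L:9967200-9967262: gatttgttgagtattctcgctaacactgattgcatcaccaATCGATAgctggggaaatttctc
CTCF, 3L:7356513-7356610: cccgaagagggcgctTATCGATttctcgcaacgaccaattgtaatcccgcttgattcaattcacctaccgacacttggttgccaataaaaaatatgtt
Cp190, 3R:15275275-15275375: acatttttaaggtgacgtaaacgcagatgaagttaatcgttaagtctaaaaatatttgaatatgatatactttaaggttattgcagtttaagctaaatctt
mod(mdg4), 3R:21365459-21365535: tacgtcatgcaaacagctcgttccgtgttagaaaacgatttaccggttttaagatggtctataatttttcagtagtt

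Chro encodes a chromodomain protein of interbands, also known as Chriz or Chromator. Its peak at 3L:22878689-22879123 had signals of 861, 923 and 663 in replicates 1, 2 and 3, at ranks 8, 5 and 6. All 3 replicates placed it among their 8 strongest peaks. The mean signal was 816 ± 136 (SD, n = 3), and the pooled signal was 2436 at rank 5. The summit lay in the 5' UTR of Chro, 87 bp downstream of its TSS, and the replicate summits were within 19 bp of it. The gene Ssl1, which encodes a subunit of the general transcription factor TFIIH, starts 105 bp from Chro on the opposite strand. Its TSS was 192 bp from the summit, so the peak can be credited to either gene. No other thresholded summit lay in Chro or upstream of it (FBgn0044324, 3L:22873702-22878984, minus strand).

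By the sum of rank differences over the 3 replicate lists, the promoter peaks most like that of Chro, other than the one it shares with Ssl1, were those of ph-p, Art3 and mRpS10. The gene ph-p encodes a Polycomb group protein, and its peak was at ranks 7, 4 and 5, a summed difference of 3. Art3, an arginine methyltransferase gene, and mRpS10, a mitochondrial ribosomal protein gene, share a peak at ranks 10, 7 and 8, with a summed difference of 6.

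The gene pzg (FBgn0259785, 3L:21286099-21290310, plus strand) encodes a zinc finger protein of interbands that is found with DREF and Trf2. Its promoter held 2 thresholded summits. The stronger one, in the peak 3L:21285572-21285981, lay 322 bp upstream and had signals of 116, 83.2 and 57.3 at ranks 982, 1213 and 2103. The 3 replicates all supported it, with a mean of 85.5 ± 29.4 (SD, n = 3). The second summit, 123 bp upstream, had signals of 72.7 in replicate 1 and 50.3 in replicate 3, and the nearest summit of replicate 2 was 140 bp away. Both summits were nearer to the TSS of CG12974 on the opposite strand, at 185 and 14 bp. The TSSs of pzg and CG12974 are 137 bp apart.

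Dref (FBgn0015664, 2L:9964147-9967229, minus strand) encodes the DRE-binding factor itself. Its promoter peak at 2L:9967007-9967416 had signals of 128, 59.0 and 98.8 at ranks 815, 1921 and 793, a mean of 95.2 ± 34.6 (SD, n = 3). Replicate 2 was the lowest, and every replicate supported the summit. The pooled summit lay 17 bp downstream of the Dref TSS, with replicate summits up to 62 bp from it. RpL13, a ribosomal protein gene, starts 84 bp away on the opposite strand, so the peak covers both start sites.

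**Figure D1:**
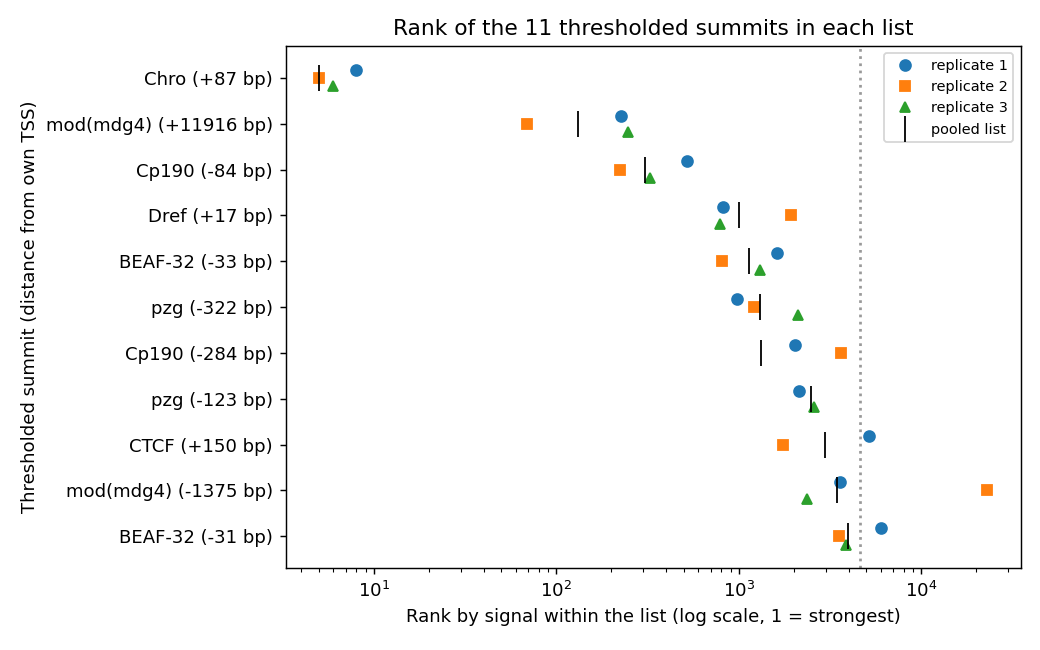
Rank by signal of each of the 11 thresholded summits in the genes and their 2000 bp upstream (log axis, 1 is the strongest), with points for the replicate lists and a bar for the pooled list; the dotted line marks rank 4622. The Chro summit sits at ranks 5 to 8 in the 3 replicates and in the pooled list, and the summit 1375 bp upstream of mod(mdg4) spreads from rank 2371 to 22925.

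Among the DNA-binding insulator proteins, BEAF-32 (FBgn0015602, plus strand) had 2 thresholded promoter summits, neither within 500 bp of the start of another protein-coding gene. The antisense RNA gene asRNA:CR42254 has start sites on the opposite strand 166 bp from the first and 25 bp from the second. The peak at 2R:14770317-14770513 had signals of 85.7, 107 and 76.1 at ranks 1625, 813 and 1300, a mean of 89.7 ± 16.0 (SD, n = 3). All replicates supported it, and the summit lay 33 bp upstream of a TSS. The second peak, 2R:14771065-14771474, was 31 bp upstream of an internal TSS, with signals of 36.5, 35.8 and 39.1. It was the weakest of the 11 thresholded summits at these genes, with a pooled signal of 115 at rank 3942. Replicate 1 ranked it 5979, outside its top 4622 peaks. A weaker pooled summit of signal 68.9, 966 bp upstream, was 80 bp from the TSS of Spred.

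CTCF (FBgn0035769, 3L:7353578-7356713, minus strand) encodes a zinc finger insulator protein. Its peak at 3L:7356358-7356767 had signals of 40.4 and 62.9 in replicates 1 and 2, at ranks 5155 and 1754, and no replicate 3 summit lay within 100 bp. The nearest replicate 3 summit was 103 bp away, with a signal of 32.5 at rank 5020. Replicate 2 alone had the summit among its top 4622 peaks. The pooled summit had a signal of 144 at rank 2972 and lay in an intron, 150 bp downstream of the TSS. An exon of the antisense RNA gene asRNA:CR45822 covers that position.

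The genes su(Hw), Ibf1 and Ibf2 had no thresholded summit in the gene or upstream. The first (FBgn0003567, 3R:14304455-14308589, minus strand) encodes the zinc finger protein that binds the gypsy insulator. Its pooled promoter summit, 319 bp upstream, had a signal of 38.4 at rank 17201, and 181 bp separated it from the TSS of Polr2I, an RNA polymerase II subunit gene. Only replicate 2 had a summit within 100 bp of it, with a signal of 31.8 at rank 4035. Ibf1 (FBgn0037670, 3R:9258964-9260400, plus strand) and Ibf2 (FBgn0037669, 3R:9257727-9258501, minus strand) encode DNA-binding partners that recruit Cp190, and their TSSs are 463 bp apart. They share 1 pooled summit of signal 33.1 at rank 22123, which was 59 bp upstream of Ibf2 and 404 bp upstream of Ibf1. That signal is below the median of the pooled list, 43.7. Replicate 1 alone had a summit within 100 bp, of signal 17.7.

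Cp190 (FBgn0000283, 3R:15270432-15275241, minus strand) encodes a BTB-domain cofactor that insulator DNA-binding proteins recruit. Its peak 3R:15275146-15275566 held 2 thresholded summits. The stronger lay 84 bp upstream of the TSS, with signals of 158, 207 and 155 at ranks 522, 223 and 324. The mean was 173 ± 29.3 (SD, n = 3), all replicates supported it, and the pooled signal of 518 was the second highest at a promoter of the 10 genes. The other summit, 284 bp upstream, was at ranks 2030 and 3631 in replicates 1 and 2, a mean signal of 54.9 ± 28.4 (SD, n = 2), and replicate 3 had none within 100 bp. It was 3 bp from the TSS of CG4338, which starts 281 bp from Cp190 on the opposite strand.

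**Figure D2:**
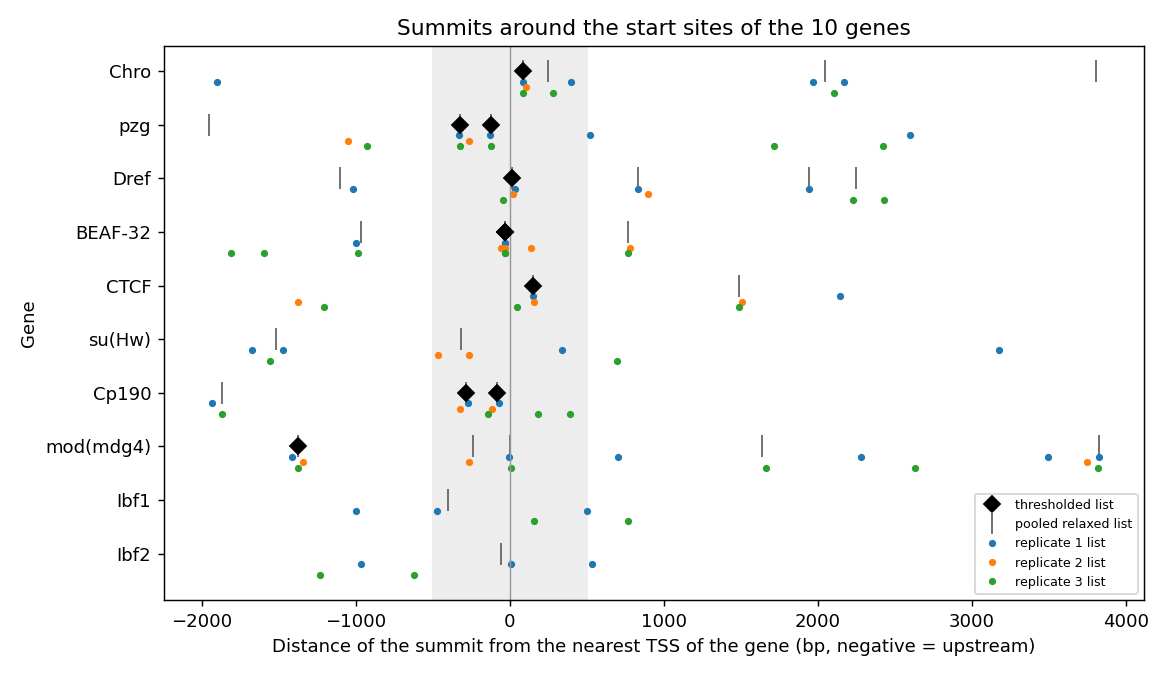
Position of every summit from 2000 bp upstream to 4000 bp downstream of the nearest TSS of each gene (bp; the shaded band is the 500 bp promoter window), by list. Each summit is placed against its own nearest TSS, so at Chro, BEAF-32 and Cp190, with several TSSs, gaps are not genomic distances. Thresholded summits lie in the band at 6 genes, and those of mod(mdg4) lie outside it.

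The gene mod(mdg4) (FBgn0002781, 3R:21350846-21377401, minus strand) encodes BTB-domain proteins, a partner of Su(Hw) among them, and joins its common exons by trans-splicing to exons from separate precursor transcripts. Its strongest peak, 3R:21365217-21365637, had signals of 230, 367 and 173 at ranks 227, 69 and 247. All replicates supported it, with a mean of 256 ± 100 (SD, n = 3), and the pooled signal of 762 at rank 131 was second to that of Chro among the 10 genes. It was not at the TSS of the gene, being 11916 bp downstream. The summit was 3 bp from the TSS of the precursor pre-mod(mdg4)-E and 124 bp from a TSS shared by 7 precursors on the opposite strand. Of the 7 TSS positions annotated to the 23 precursors inside the gene, 3 had a thresholded summit within 500 bp, and at each it was this same summit. With pooled summits the count was 6, the added positions being near weaker summits of signal 50.1 and 99.9. No share of all TSS positions stands beside these counts.

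At the TSS of mod(mdg4) itself the pooled summit, 1 bp upstream, had a signal of 79.0 at rank 6285. Replicates 1 and 3 had it at 23.9 and 38.5, and replicate 2 had none within 100 bp. A summit of signal 99.9 at rank 4726 was the closest below the threshold, and it was 3 bp from the TSS of the precursors AA, N and O. The other thresholded summit, 1375 bp upstream, had signals of 51.8, 12.5 and 53.4. Replicate 2 ranked it 22925, far below the others. It was 201 bp from the TSS of tin, which encodes the homeobox factor tinman of heart development.

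**Figure D3:**
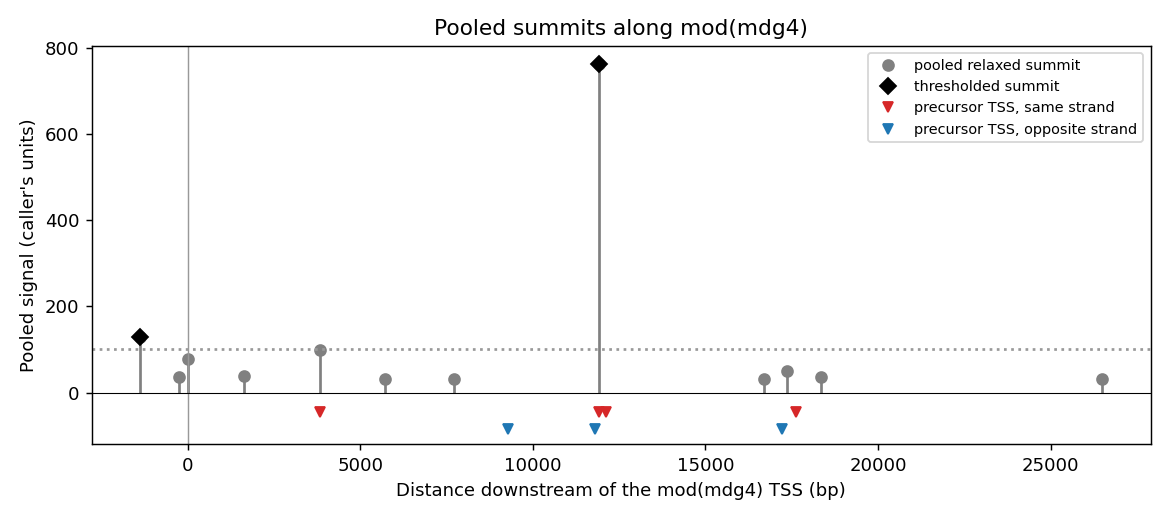
Pooled signal (the caller's units) of each pooled summit along mod(mdg4) and upstream of it, against distance downstream of its TSS (bp); diamonds are thresholded summits, triangles are precursor start sites and the dotted line is the lowest thresholded signal. The summit of signal 762 stands 11916 bp downstream, at precursor start sites, and the one at the gene's own start reaches 79.0.

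In all, the genes and their upstream stretches held 11 thresholded and 36 pooled summits. Of the 11, 6 were supported by all 3 replicates, beside 55.2% of all thresholded summits. Leaving out replicate 1, 2 or 3 and asking for support from both others kept 7, 8 and 7 of the 11. Promoter summits numbered 9, and 6 of these lay within 500 bp of a second protein-coding gene, always on the opposite strand, beside 40.7% of all thresholded promoter summits. The 6 shared summits came from 4 genes, with 2 each at pzg and Cp190. The pairs were Chro with Ssl1, pzg with CG12974, Dref with RpL13 and Cp190 with CG4338. Among the 6 genes with a promoter summit, 3 had more than 1 (pzg, BEAF-32 and Cp190), as did 11.2% of all genes with one. At each of these 3 genes only the stronger summit was supported by all 3 replicates. Pooled signals of the 11 summits ran from 115 to 2436 with a median of 253, and the median of all thresholded summits was 172.

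The exact DRE was at none of the 11 summits within 50 bp, and at 2.23% of all thresholded summits and 4.21% of promoter summits. The core ATCGAT was at 2 of the 11, those of Dref and CTCF, and at 6.14% of all and 10.3% of promoter summits. CGATA, which the DRE contains, was at 3 of the 11 when Chro is added, and at 17.7% of all and 24.2% of promoter summits. In the Chro sequence above it was 3 bp from the summit. A further search, chosen after the sequences were seen, allowed 1 changed letter in the DRE. It found TGTCGATA at Chro, AATCGATA at Dref and TATCGATT at CTCF, 4, 30 and 32 bp from the summits, and such forms were at 8.76% of all summits and 12.9% of promoter summits. All searches read both strands.

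The PAR sites TTACGTAA and TTATGTAA were at none of the 11 summits within 50 or 100 bp. They were rare over the whole thresholded list too, within 50 bp of 0.195% and 0.995% of summits. With 1 changed letter they were at 2 of the 11, as TGACGTAA 34 bp from the stronger Cp190 summit and as TTATGTAT 20 bp from the summit upstream of mod(mdg4), and at 22.1% of all. GAGAG, the element of the GAGA factor, was at none of the 11 within 50 bp and at 9.71% of all. These counts describe letters in a window and not binding by any factor.

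Exact DREs were found in promoters of the genes, though none within 50 bp of a thresholded summit. Within 250 bp upstream to 50 bp downstream of an annotated TSS, 6 of the 10 genes had one: BEAF-32, CTCF, Cp190, mod(mdg4), Ibf1 and Ibf2. The share was 10.2% of all protein-coding genes, 16.8% of those with a thresholded promoter summit and 8.43% of the rest. Of the 6 genes, 3 had a thresholded promoter summit and 3 did not. With the core ATCGAT the count was 7, adding Dref, beside 26.4% of all genes. GGTCACAC, bound by M1BP and known as Motif 1, was in the su(Hw) promoter only, and in 8.71% of all genes.

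The DREs are shown with their surroundings because their distance to the summit differs between genes. Sequences are from the dm6 plus strand, 5' to 3', with the DRE in capitals.
CTCF, 3L:7356727-7356734: gtaccgccagcTATCGATAgttcgattggt
Cp190, 3R:15275238-15275245: cgctcggcagcTATCGATAgccatgcgata
Cp190, internal TSS, 3R:15274804-15274811: caactcgcaaaTATCGATAtacgcctgtgt
mod(mdg4), 3R:21377448-21377455: aagtgacaataTATCGATAgcttaaaatat
Ibf1, 3R:9258924-9258931: caaaatggtttTATCGATAtgtcgatacat
Ibf2, 3R:9258501-9258508: ttcaaccgatgTATCGATAacatgccatcg
Coordinates give the DRE alone. The DRE over the Cp190 TSS was 84 bp from the thresholded summit, and the one at the internal TSS was 518 bp from it. At CTCF the DRE was 18 bp upstream of the TSS and 168 bp from the pooled summit. The DRE of mod(mdg4) was 50 bp from the weak summit at its own TSS. At Ibf2 the DRE was 56 bp, and at Ibf1 368 bp, from their shared weak summit.

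**Figure D4:**
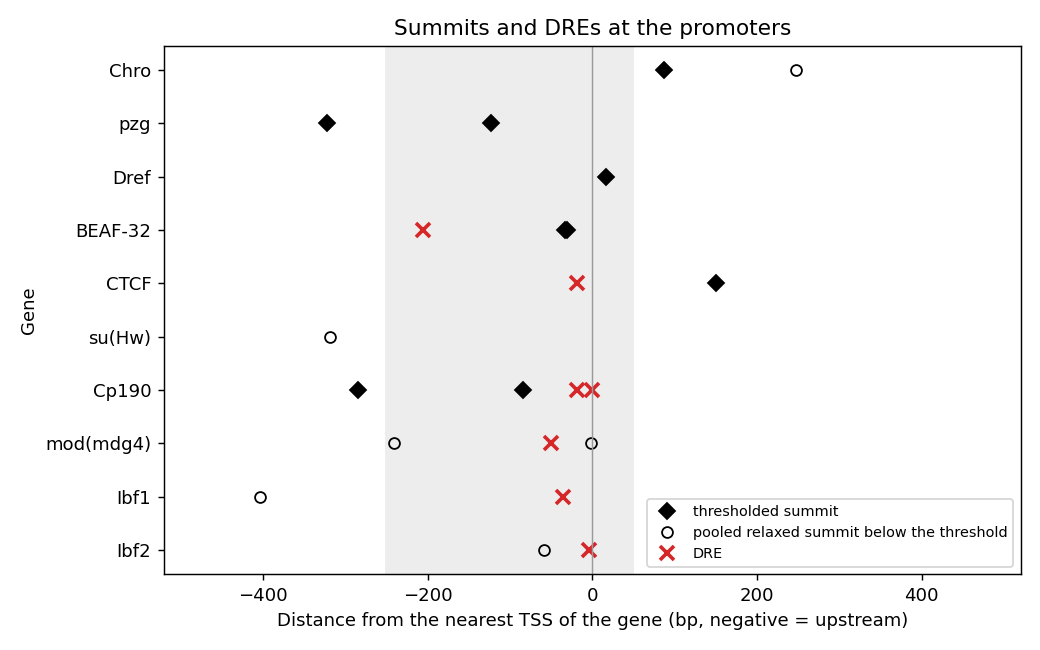
Promoter summits and exact DREs of the 10 genes by distance from the nearest TSS of the gene (bp), with the searched window of 250 bp upstream to 50 bp downstream shaded. Each mark is placed against its own nearest TSS. At genes with several TSSs (Chro, BEAF-32 and Cp190) gaps between marks are therefore not genomic distances. The DREs of BEAF-32, CTCF and Cp190 lie 84 to 518 bp from the nearest thresholded summit, and Chro, pzg, Dref and su(Hw) have no DRE in the window.

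Over all genes with a thresholded promoter summit, 419 DREs in these windows lay at a median of 105.5 bp from the nearest thresholded summit, and 99 (23.63%) were within 50 bp. The DRE of BEAF-32, 206 bp upstream of its TSS, was 174 bp from the summit. This distance was above that median, as were the 168 bp at CTCF and the 518 bp of the DRE at the internal Cp190 TSS. The 84 bp of the other Cp190 DRE was below it. From the nearest summits of replicates 1, 2 and 3 that DRE was 70, 116 and 142 bp away, on both sides of the median. The CTCF DRE was 168, 172 and 64 bp away, so replicate 3 fell below the median. For the BEAF-32 and internal Cp190 DREs every replicate distance was above it.

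A further list held 32 genes of related proteins, and 14 of them had a thresholded promoter summit, against the share of 20.7% of all genes. They were 5 of 16 insulator protein genes, 6 of 10 genes linked to DREF, Chro or pzg, and 3 of 6 cohesin or condensin genes. Asking for support from replicates 2 and 3, without replicate 1, left 8 of the 14, and no share of all genes by that rule is given. The strongest was Trl, the gene of the GAGA factor, with signals of 166, 141 and 104 in the replicates and a pooled signal of 434. Cap-H2, a condensin subunit gene, had 387, the zinc finger gene row 363 and shep, an RNA-binding modulator of insulators, 334. The kinase gene JIL-1 followed with 198, M1BP with 193, the cohesin gene SA1 with 187, woc with 175 and pita with 174. XNP at 158, E(bx) of the NURF remodeller at 134, SMC1 at 126, Trf2, the TBP-related factor found with DREF, at 120 and Top2 at 107 were nearer the threshold. Of the 14, 5 had their strongest promoter summit also within 500 bp of the start of another protein-coding gene. The share of all thresholded promoter summits near more than 1 such gene was 40.7%. The 5 were Cap-H2 (MED7), M1BP (CG8202), SA1 (Gas41), XNP (CG42488 and CG5116) and E(bx) (mthl14). SA1 stands for the listed name SA, a synonym of more than 1 gene, and was taken by its role. The median of the 14 was 181, and the pooled signal of Cp190 was above all 14. That of Chro was too, but Chro was chosen for its strong peak, so its place was set by that choice.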

How the data were processed

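Peaks of anti-GFP ChIP-seq from 3 biological replicates of Pdp1-eGFP embryos were read from the dm6 lists, and the dm3 lists were not used. The authors deposited a signal value for each peak, made by their peak caller and not scaled between lists. Per the listings that accompany the files, the relaxed lists were the input of the irreproducible discovery rate procedure, and the thresholded list was kept by it from a call on the pooled replicates. Not given in the sources used here are the names and versions of the aligner and caller. The other deposited value used was the summit offset from the peak start.

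Summits were matched to Ensembl release 115 gene models, and sequences came from the Release 6 genome, with python 3.11.15, numpy 2.4.6 and pandas 2.3.3. A replicate's signal was taken from its nearest summit within 100 bp, and ± gives the SD over lists, which includes their difference in scale. Motifs were searched as exact letters on both strands within 50 bp of a summit and in promoter windows. Counting and matching code was tested on simulated data. Text names all 10 genes with every thresholded summit, further-list genes with a thresholded promoter summit, neighbouring genes starting within 500 bp of a promoter summit, and the 3 genes with promoter peak ranks most like Chro. Weaker summits named beside these were chosen after their values were seen. The members, the lists and the motifs were chosen with earlier results of these data known, so counts stand beside shares of all genes or summits and no test was run. Skeletor, Mtor and SA of the further list were matched by RefSeq synonym. Mtor and SA are synonyms of more than 1 gene there, and Mgtor and SA1 were taken by role. Depth is unknown, so no counting interval is given. Alternatives varied the list, the windows, the matching distance, the replicates and the motif.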

Additional observations from a re-analysis of the deposited data

How the results depend on the processing

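Of 58 alternative values, 43 stayed near the reported ones and 15 moved. Near was a loose label: it took in the 7 genes with a summit in the gene or upstream becoming 10 in the pooled list. Some of the 43 could not move. A DRE count of 0 cannot fall under stricter settings, and the Chro replicate summits were within 19 bp, inside every match distance. The 43 are therefore no measure of robustness. The 6 genes with a thresholded promoter summit became 10 in the pooled relaxed list. The 11 thresholded summits became 7 above the median signal, 6 with support in all 3 replicates, 36 in the pooled list and 5 without the upstream stretch, and support from both others with 1 replicate left out gave 7 to 8. The 6 summits supported in all replicates became 2 when replicate summits had to lie within 50 bp. The count of 0 genes with a DRE at a promoter summit became 1 within 100 bp, 2 with the core ATCGAT and 3 with 1 changed letter, the last chosen after seeing the data. The 14 further genes, out of 32, became 8 with support in all replicates, beside 12.2% of all genes. In the pooled list they became 28, beside 51.1% of all genes. Above the median signal they became 9, and without 1 replicate 8 to 11, with no share of all genes given. The mean signal at Chro, 816, ranged from 762 to 892 without 1 replicate. The cause of these moves was not tested.

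No paired analysis was possible because the replicates form 1 group and no test was run. Unknown depth limits every absence: a gene without a summit in a list had none above that list's cut. A weaker summit is not shown by that list, though a relaxed list can hold it, as at su(Hw), Ibf1 and Ibf2. Their pooled promoter summits had signals of 38.4 and 33.1, below the median of that list, 43.7, and 1 replicate matched each. Whether these summits are binding or background was not tested. A peak between start sites on opposite strands cannot be credited to 1 gene.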
